A study of Mus musculus with 9 samples.

Results

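The glutathione peroxidases Gpx1, Gpx3, Gpx4, Gpx7 and Gpx8, catalase (Cat) and the superoxide dismutases Sod1, Sod2 and Sod3 are described here in bone vessels of young and adult mice. These 9 genes are 9 of the 39179 listed in each count table, and their symbols were matched to the listed Ensembl identifiers. They were chosen from enzyme families with the difference between the ages in these same libraries already known. Their age differences are therefore given as a description, and no p is given for them. Of the 9 genes, 8 passed the filter on low counts and Sod3 did not.

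The study asked how vessels and the cells next to them differ between growing and mature bone. Capillaries were cut together with adjoining cells by laser microdissection from the ossification front (OF) of femurs, and the RNA was amplified and sequenced as 1 library per sample. The juvenile group was 4 weeks old (n = 5) and the adult group 12 weeks old (n = 4). All mice carried the transgene Tg(TIE2GFP)287Sato/J on a C57BL/6 origin and were untreated. The transgene puts green fluorescent protein under Tie2 regulatory sequence, which marks endothelial cells and guided the cutting, and Tie2 is also active in some blood-forming cells. Each library is a mixture, because the cells around the vessel were collected with it.

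Superoxide dismutases turn superoxide into hydrogen peroxide, and catalase and glutathione peroxidases then reduce the peroxide, the latter at the expense of glutathione. Several glutathione peroxidases carry selenocysteine at the catalytic site, whereas others have cysteine there. Red blood cells carry several of these enzymes, and cells that secrete collagen form peroxide in the endoplasmic reticulum (ER) while disulphide bonds are made.

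Total counts were 5706342, 7398483, 4856833, 5844430 and 5001866 in juvenile replicates 1 to 5. In adult replicates 1 to 4 they were 8077362, 5821596, 7775714 and 7206651. Levels are in CPM (counts divided by library size, times 10 to the power 6), on library sizes scaled by the trimmed mean of M values (TMM). At these depths 3 counts, taken as the floor of detection, were 0.347 to 0.638 CPM. Amplified reads are not independent molecules, so this floor covers counting error only.

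Juvenile replicates 4 and 5 stood apart in sex-linked transcripts, with 11 and 1 counts of Xist and 524 and 439 counts of Ddx3y. The other 7 libraries had 2965 or more counts of Xist and at most 1 of Ddx3y. Both patterns were thus present among juvenile libraries and only the Xist pattern among the 4 adult libraries. Sex and age therefore cannot be told apart fully in these libraries.

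Of the labelled endothelial cells, all 10 markers had counts in every library. Their summed level was 439 to 751 CPM in juvenile and 543 to 762 CPM in adult libraries, with Kdr as the most abundant marker. None of the 10 endothelial markers was called by edgeR, none had an unadjusted p under 0.05, and none was called by DESeq2 or limma. The 10 osteoblast markers summed to 167900 to 209200 CPM in juvenile and 60680 to 88960 CPM in adult libraries.

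Across all 13418 genes tested, edgeR called 520 (3.88%) at an adjusted p under 0.05, with 267 (1.99%) higher at 4 weeks and 253 (1.89%) higher at 12 weeks. Scaling by library totals alone gave 197 and 480. The ages did not overlap for 1228 genes (9.15%), with every juvenile library above every adult library for 680 (5.07%) and the reverse for 548 (4.08%). Among the 8 members tested, Gpx1, Gpx3 and Gpx7 were called and were also the 3 without overlap. Since that contrast was known when the members were chosen, these calls are no test of the members and nothing is read from them.

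Gpx1, the cytosolic and mitochondrial selenoenzyme that reduces hydrogen peroxide (ENSMUSG00000063856, GRCm38 chr9:108338903-108340343), had the largest age difference of the 8 tested members. In juvenile replicates 1 to 5 its level was 609, 383, 315, 268 and 264 CPM. In adult replicates 1 to 4 it was 1143, 824, 1292 and 2282 CPM. Every adult library lay above every juvenile library, adult replicate 4 was highest, and juvenile replicate 1 was the highest of its age. The log2 fold of juvenile over adult was -1.91 (SE 0.31), a 3.77-fold higher adult level. Without juvenile replicates 4 and 5 together it was -1.67 (SE 0.36). In these bulk libraries, fewer cells of a type and less RNA per cell cannot be told apart.

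Each member was set beside 14 marker lists, and for Gpx1, Gpx3 and Gpx7 the list with the largest r is described. For Gpx1 this was the erythroid list. Of 12 erythroid markers listed, 11 were in the tables and 10 were tested, and edgeR called all 10 as higher in adult libraries, against 6 with limma voom and 11 with DESeq2. Their summed level in juvenile replicates 1 to 5 was 2556, 1017, 439, 547 and 422 CPM. In adult replicates 1 to 4 it was 7911, 4747, 11370 and 37250 CPM. Adult replicate 4 and juvenile replicate 1 were thus the highest of their ages in both measures. Hbb-bs was the most abundant marker with 45.7% of the sum, and 4, 0, 1, 1 and 2 of the listed markers were at 0 in juvenile replicates 1 to 5 and 2, 0, 0 and 0 in adult replicates 1 to 4. On the log2 scale, Gpx1 and the erythroid sum had a Pearson r of 0.995 and a Spearman rho of 0.983 over the 9 libraries. With the age means subtracted, r was 0.980 and rho 0.917, and r stayed between 0.965 and 0.995 when any 1 library was left out. Adult replicate 4 and juvenile replicate 5 were the 2 libraries farthest from the median erythroid sum. Without them, r with no subtraction of age means was 0.991, beside 0.995 with all 9. Other lists moved with Gpx1 as well, with an r of -0.951 for osteoblast, 0.932 for macrophage and 0.881 for megakaryocyte and platelet markers, and -0.768, 0.652 and 0.638 with age means subtracted. The erythroid sum had an r of 0.522 with Gpx4, 0.440 with Cat and 0.743 with Sod1, and of 0.583, 0.075 and 0.174 with age means subtracted. The points share library preparation and depth, and the part of erythroid RNA in the Gpx1 difference was not tested.

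Gpx3, the secreted plasma selenoenzyme (ENSMUSG00000018339, chr11:54902453-54910377), had the opposite pattern. Its level was 2302, 2572, 2494, 3126 and 2252 CPM in juvenile replicates 1 to 5. The adult libraries, in order, had 900, 1130, 935 and 736 CPM. Every juvenile library lay above every adult library, and adult replicate 4, the highest in Gpx1, was the lowest in Gpx3. The log2 fold was 1.46 (SE 0.17), a 2.76-fold higher juvenile level. Gpx3 ranked 24 among the 13418 tested genes by mean juvenile CPM and 62 by mean adult CPM, while Gpx1 ranked 281 and 41. These ranks are of CPM without regard to gene length.

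Gpx4, which reduces lipid hydroperoxides in membranes (ENSMUSG00000075706, chr10:80047166-80056439), overlapped between the ages. Juvenile replicates 1 to 5 had 268, 271, 218, 317 and 246 CPM. In the adult libraries it was 262, 265, 259 and 363 CPM. The adult libraries lay close together apart from replicate 4, and the log2 fold was -0.12 (SE 0.17), or -0.01 without that library and -0.30 with library totals. The annotation holds 1 pseudogene named after Gpx4, so reads shared with that copy make this level uncertain.

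**Figure D1:**
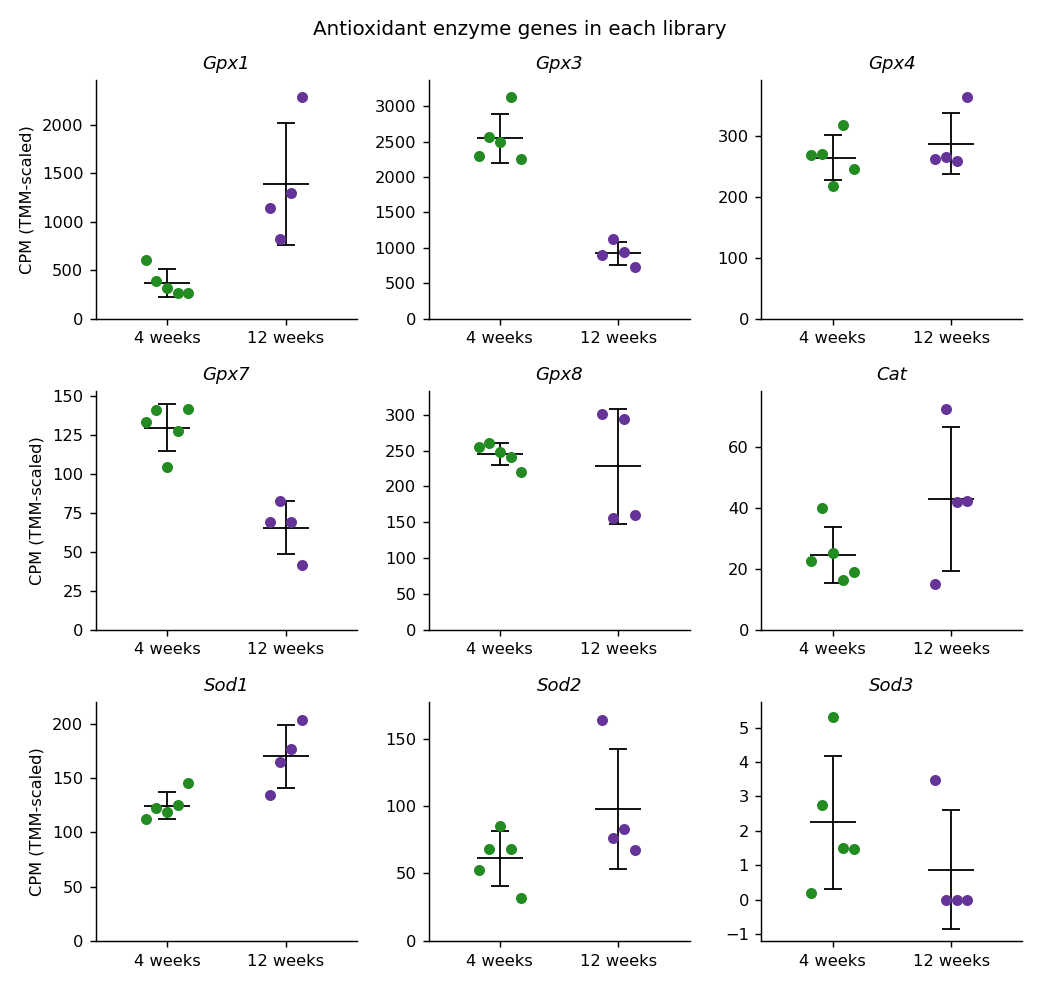
Level of each of the 9 genes in every library, as TMM-scaled CPM on the vertical axis, with juvenile libraries (4 weeks, n = 5, green) and adult libraries (12 weeks, n = 4, purple) along the horizontal axis. Points are libraries in replicate order, and bars are the mean and SD. Gpx1 was higher in all adult libraries, Gpx3 and Gpx7 were higher in all juvenile libraries, and the other genes overlapped.

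Gpx7 and Gpx8 are ER peroxidases that use cysteine in place of selenocysteine and take up peroxide formed during oxidative folding. Gpx7 (ENSMUSG00000028597, chr4:108400390-108406961) was at 134, 141, 105, 128 and 142 CPM in juvenile replicates 1 to 5. Adult replicates 1 to 4 had 69.2, 82.5, 69.5 and 41.6 CPM. The lowest juvenile library lay above the highest adult library, and adult replicate 4 was again the lowest. The log2 fold was 0.98 (SE 0.22). It was 0.80 to 1.09 over all alternatives tried.

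Gpx8 (ENSMUSG00000021760, chr13:113042753-113046410) was at 256, 261, 248, 241 and 220 CPM in juvenile replicates 1 to 5. Adult replicates 1 to 4 had 302, 157, 294 and 161 CPM. The juvenile libraries were close to each other, whereas the adult libraries formed a high pair and a low pair on either side of them. The log2 fold was 0.10 (SE 0.22) with TMM scaling and -0.07 (SE 0.22) with library totals, and also turned negative without adult replicate 2 (-0.06) or 4 (-0.05), so no direction is given. The SD of log2 CPM was 0.10 in juvenile and 0.52 in adult libraries, a ratio of 5.49. Over all tested genes the median SD was 0.51 and 0.70, and 68.8% of genes had the larger SD in adult libraries. Gpx8 ranked 499 of 13418 by mean juvenile CPM, and genes with fewer counts have a larger counting error, so its juvenile SD is not ranked among them.

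The make-up of the glutathione peroxidase transcripts and their sum are described for each age. Gpx3 held 71.6% ± 4.5 (SD, n = 5) of the summed CPM of the 5 genes in juvenile and 33.3% ± 10.4 (SD, n = 4) in adult libraries. Gpx1 held 10.4% ± 4.02 (SD, n = 5) and 46.3% ± 12.7 (SD, n = 4). Neither share overlapped between the ages, from which nothing is read, since the members were chosen with this contrast known. The share of Gpx4 was 6.46% to 7.86% in juvenile and 9.1% to 10.8% in adult libraries, although its own level overlapped. The summed level was 3556 ± 352 CPM (SD, n = 5) and 2892 ± 488 CPM (SD, n = 4), with ranges of 3124 to 4079 and 2458 to 3583 that overlapped. With library totals the means were closer, at 3358 and 3081 CPM. The shares of a sum are tied to each other, and CPM counts longer transcripts more.

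**Figure D2:**
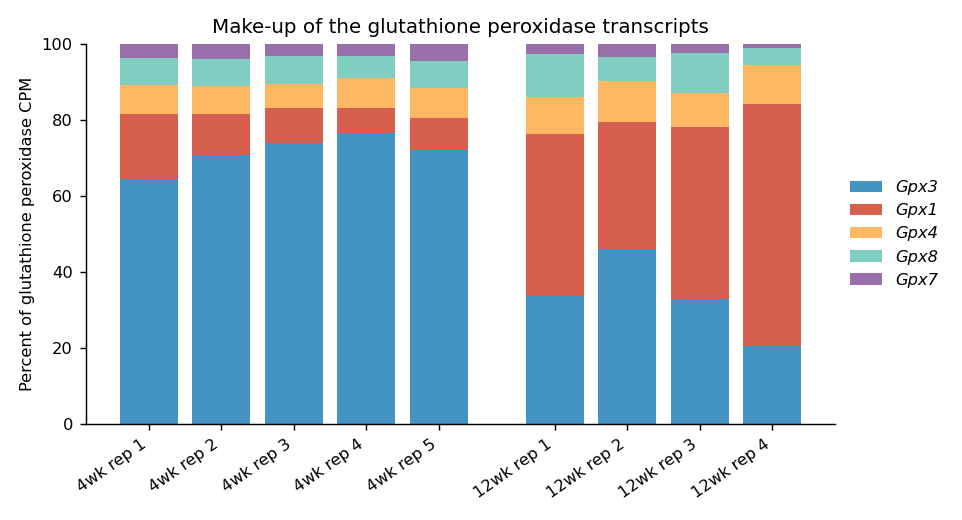
Percent of the summed CPM of Gpx1, Gpx3, Gpx4, Gpx7 and Gpx8 that each gene held (vertical axis, stacked to 100%) in each juvenile and adult library (horizontal axis). Gpx3 held 64.5% or more in every juvenile library and 46% or less in every adult library.

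The 5 peroxidases differ at the catalytic codon. The coding sequence around it is shown to let the selenocysteine and cysteine enzymes be compared, with the catalytic codon in capitals and 15 bases on either side, 5′ to 3′ on the coding strand. Sequences are from the principal transcripts of GENCODE M21 on GRCm38.
Gpx1: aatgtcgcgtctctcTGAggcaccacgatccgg
Gpx3: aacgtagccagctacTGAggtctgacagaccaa
Gpx4: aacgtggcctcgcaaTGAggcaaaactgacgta
Gpx7: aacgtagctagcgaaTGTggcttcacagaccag
Gpx8: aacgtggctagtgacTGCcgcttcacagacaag

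The windows lie in coding exons at chr9:108339436-108339468 (plus strand) for Gpx1, chr11:54907241-54907273 (plus strand) for Gpx3 and chr10:80054722-80054754 (plus strand) for Gpx4. Those of Gpx7 and Gpx8 lie on the minus strand, at chr4:108403415-108403447 and chr13:113045646-113045678. Codon 47 of Gpx1 and codon 73 of both Gpx3 and Gpx4 are TGA, an in-frame stop codon that the annotation marks as selenocysteine. Codon 56 of Gpx7 is TGT and codon 79 of Gpx8 is TGC, both cysteine codons. Gpx7 and Gpx8 shared 27 of 33 bases (81.8%), the most of any pair, and Gpx1 and Gpx3 shared 16 of 33 (48.5%), the fewest. The codon type did not follow the age pattern, since Gpx1, Gpx3 and Gpx4 all carry TGA and had a higher adult level, a higher juvenile level and overlapping ages.

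Catalase, which splits hydrogen peroxide in peroxisomes without a cofactor to be recycled (Cat, ENSMUSG00000027187, chr2:103453849-103485160), was low and variable. It was at 22.7, 40.1, 25.1, 16.3 and 19.1 CPM in juvenile replicates 1 to 5. Adult replicates 1 to 4 had 15.0, 72.8, 42.1 and 42.5 CPM. All adult libraries except replicate 1 lay above the juvenile ones, and replicate 1 was the lowest of all 9. The log2 fold was -0.80 (SE 0.42), and -0.45 (SE 0.43) without adult replicate 2, with an SD of log2 CPM of 0.49 in juvenile and 0.94 in adult libraries.

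Sod1, the copper and zinc enzyme of the cytosol (ENSMUSG00000022982, chr16:90220754-90226329), was at 112, 122, 118, 125 and 145 CPM in juvenile replicates 1 to 5. Adult replicates 1 to 4 had 134, 165, 176 and 204 CPM. The ages overlapped only through adult replicate 1 and juvenile replicate 5, and the log2 fold was -0.45 (SE 0.17). Sod2, the manganese enzyme of mitochondria (ENSMUSG00000006818, chr17:13006846-13040063), was at 52.4, 68.1, 85.6, 68.3 and 31.6 CPM in juvenile replicates 1 to 5. Adult replicates 1 to 4 had 164, 76.7, 82.9 and 67.3 CPM. Apart from adult replicate 1, the adult values lay within the juvenile range, and the log2 fold was -0.68 (SE 0.32), or -0.32 (SE 0.29) without that library.

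Sod3, the extracellular enzyme (ENSMUSG00000072941, chr5:52363791-52371418), was near the floor. It had 1, 19, 25, 8 and 7 counts in juvenile replicates 1 to 5 and 30, 0, 0 and 0 in adult replicates 1 to 4. It thus reached the floor of 3 counts in 4 juvenile libraries and in adult replicate 1. A count of 0 allows a level of up to 0.501, 0.371 and 0.376 CPM in adult replicates 2, 3 and 4, and no fold is given. The summed CPM of the 3 dismutases was 165 to 209 in juvenile and 242 to 302 in adult libraries and did not overlap. It did not overlap with library totals or with the size factors of DESeq2 either, which rescale the same counts. Every adult library lay above every juvenile library for 4.08% of all tested genes. Nothing is read from the sum, since the members were chosen with this contrast known.

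With age means subtracted, the Pearson r of log2 CPM of Sod1 and Sod2 over the 9 libraries was -0.81 (-0.90 to -0.64 with 1 library left out), against 0.01 without subtraction. Adult replicate 1 had the highest Sod2 and lowest Sod1 of the adult libraries, and juvenile replicate 5 had the lowest Sod2 and highest Sod1 of its age. Without both of these libraries the r with age means subtracted was -0.056, so it rested on them. Gpx1 and Gpx3 had an r of -0.94 over the 9 libraries and -0.72 with age means subtracted. The latter was -0.91 to -0.52 with 1 library left out, and -0.388 without adult replicates 2 and 4. Gpx3 and Gpx7 had an r of 0.92 over the 9 libraries and 0.59 with age means subtracted. The latter was 0.13 to 0.75 with 1 library left out, and turned negative (-0.195) without adult replicates 2 and 4. These are descriptions of 9 libraries that share scaling and amplification.

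Levels between genes were compared as CPM per kilobase of all annotated exons. In juvenile libraries the order was Gpx3 at 1410 ± 192 (SD, n = 5), Gpx1 at 255 ± 99.4, Gpx8 at 234 ± 15.2, Gpx4 at 153 ± 21.2, Gpx7 at 101 ± 11.8, Sod1 at 31.4 ± 3.13, Cat at 9.43 ± 3.54, Sod2 at 6.11 ± 2.03 and Sod3 at 0.601 ± 0.52. The neighbours Gpx1 and Gpx8 overlapped in this order, as did Cat and Sod2. In adult libraries Gpx1 came first at 961 ± 436 (SD, n = 4), ahead of Gpx3 at 510 ± 89.1, but their ranges of 572 to 1580 and 406 to 623 overlapped. Then came Gpx8 at 218 ± 76.8, Gpx4 at 167 ± 29.2, Gpx7 at 51 ± 13.4, Sod1 at 42.7 ± 7.21, Cat at 16.5 ± 9.04, Sod2 at 9.76 ± 4.46 and Sod3 at 0.232 ± 0.464. Gpx8 overlapped with Gpx4, Gpx7 with Sod1 and Cat with Sod2. The length chosen matters for Sod1, whose exons span 3970 bases in all against 641 in the principal transcript. On principal transcripts Sod1 stood at 194 ± 19.4 in juvenile and 265 ± 44.6 in adult libraries, above Gpx7, and 6 of the 9 genes changed place in each age. This length was chosen after the data were seen.

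Osteoblast markers moved with Gpx3 and Gpx7. Of the 10 osteoblast markers tested, 5 were called higher in juvenile and 1 higher in adult libraries. Their sum was 173600, 180500, 167900, 209200 and 192600 CPM in juvenile replicates 1 to 5. In adult replicates 1 to 4 it was 83740, 88560, 88960 and 60680 CPM. Col1a2 held 44% of the sum, and 1 marker was at 0 in juvenile replicate 1 and none in the other libraries. Adult replicate 4 was thus lowest in osteoblast markers, in Gpx3 and in Gpx7. The r with the osteoblast sum over 9 libraries was 0.983 for Gpx3 and 0.957 for Gpx7 on the log2 scale. With age means subtracted it was 0.770 and 0.850, falling to 0.584 and 0.408 at the lowest when 1 library was left out. The Spearman rho with age means subtracted was 0.733 and 0.467. Macrophage markers had an r of -0.954 with Gpx3, and -0.708 with age means subtracted, and megakaryocyte and platelet markers had -0.928 and -0.800 with Gpx7. The part of osteoblast RNA in these differences was not tested.

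**Figure D3:**
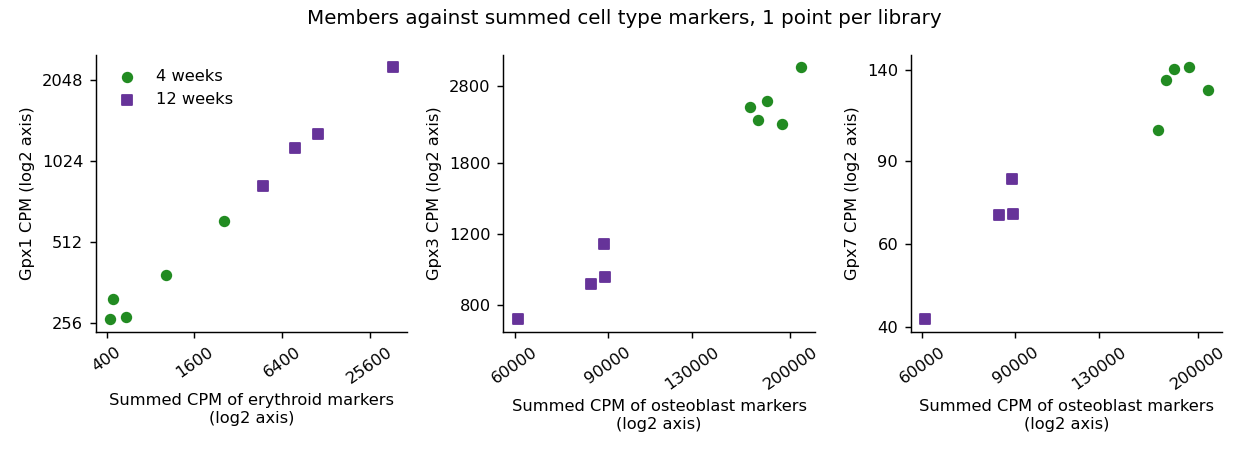
Gpx1 against the summed CPM of erythroid markers, and Gpx3 and Gpx7 against that of osteoblast markers, with CPM on log2 axes and 1 point per library (circles, 4 weeks; squares, 12 weeks). Gpx1 followed the erythroid sum within each age as well as between ages, with an r of 0.980 after the age means were subtracted.

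The genes most like the members with the largest age differences were sought over the 9 libraries by Pearson r of log2 CPM. For Gpx1 they were Hbb-bs (0.993), Hba-a1 (0.986) and Glul (0.976), and with age means subtracted Hba-a1 (0.980), Ifi27 (0.968) and Hbb-bs (0.968). Globin genes have near-identical copies, so their separate counts are uncertain. For Gpx3 they were Creb3l1 (0.992), Slc4a4 (0.987) and Mmp2 (0.983), and with age means subtracted Nras (0.946), Cenpj (0.936) and Tsr1 (0.935). Sod3 was second by difference in mean log2 CPM with a prior count of 2 (1.74) and first with 0.5 (2.96), and its closest genes were 4930439A04Rik (0.957), Tmem106b (0.949) and Bckdk (0.946), and with age means subtracted AI987944 (0.959), Ccnjl (0.956) and Gm49342 (0.945), but its counts are too sparse for these values to carry weight. Gpx7 was next, and was included because Sod3 had not passed the filter. Its closest genes were Colgalt1 (0.985), Gpr162 (0.977) and Serpinf1 (0.975), and with age means subtracted Cdh15 (0.989), Prkd3 (0.976) and Colgalt1 (0.975). Each is the top of 13418 genes over only 9 libraries.

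The core of the antioxidant response element, TGACNNNGC, was searched on both strands of RefSeq promoter windows of 300 bases (GRCm38.p6), 250 before and 50 after the start of the gene. Windows were found for 8 of the 9 members, all but Sod3. Only the Sod1 window held a match, on the other strand and starting 56 bases before the RefSeq start, which is not the GENCODE start given above. It is printed from chr16:90220698-90220722, plus strand, with the match in capitals.
Sod1: caaggtggGCGTGGTCAgactcagg

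Of all 32851 windows, 12.4% held a match. The letters are described only, and nothing follows from them about binding.

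Other genes of peroxide and thiol metabolism were counted in lists drawn up from pathway membership, with earlier results of these data known. Of 179 listed genes, 177 were in the tables and 154 were tested, and edgeR called 5 as higher at 4 weeks and 11 as higher at 12 weeks, beside 1.99% and 1.89% of all tested genes. Library totals gave 3 and 15, and DESeq2 10 and 18. The total of 16 was 10, 8, 8 or 8 without juvenile replicate 1, 3, 4 or 5, and 10 or 9 without adult replicate 3 or 4. The median log2 fold of the 154 genes was -0.17, beside -0.0066 over all tested genes. With library totals both shifted, to -0.35 and -0.18.

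None of the other glutathione peroxidases passed the filter on low counts. Gpx2 reached the floor in juvenile replicate 4 (4 counts) and adult replicate 3 (10 counts), and Gpx5 and Gpx6 were at 0 in all 9. In the list of glutathione synthesis and recycling, DESeq2 called 0 genes as higher in juvenile and 2 as higher in adult libraries. Of the 19 tested by edgeR, only Gclm, the modifier subunit of the enzyme that starts glutathione synthesis, was called. Its level was 14 to 27.5 CPM in juvenile and 43.1 to 123 CPM in adult libraries, a log2 fold of -1.84 (SE 0.36, edgeR adjusted p = 0.0148). Its exons overlap the pseudogene Gm6061 on the same strand and Gm17494 on the opposite strand, so its count is uncertain. In the list of glutathione S-transferases, DESeq2 called 1 gene as higher in juvenile and 4 as higher in adult libraries. Of 16 tested by edgeR, only Mgst2 was called, with 0 to 0.851 CPM in juvenile and 4.68 to 13.3 CPM in adult libraries (edgeR adjusted p = 0.0356). Its juvenile counts were 0, 0, 4, 1 and 1, so no fold is given.

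Peroxiredoxins and thioredoxins form a parallel route for peroxide. Of 7 genes in the peroxiredoxin list, only Prdx2, abundant in red blood cells, was called, at 265 to 329 CPM in juvenile and 422 to 682 CPM in adult libraries (log2 fold -0.78, SE 0.18, edgeR adjusted p = 0.028). Its exons overlap those of Junb and Rnaseh2a on the opposite strand, which makes its count uncertain. Of 12 thioredoxin genes, Txn1 was called at 111 to 187 and 217 to 286 CPM (log2 fold -0.83, SE 0.19, edgeR adjusted p = 0.0319). Txnip, which binds and inhibits thioredoxin, was called at 89.2 to 175 and 200 to 456 CPM (log2 fold -1.45, SE 0.26, edgeR adjusted p = 0.0111), and it overlaps the antisense gene Gm15441. All 3 genes had every adult library above every juvenile library, as did 4.08% of all tested genes. They are named because they were called in these same libraries, so this adds no support to the calls.

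Among 20 NRF2 regulators and targets tested, the 2 called by edgeR were Fth1, the ferritin heavy chain, and Blvrb, biliverdin reductase B, a gene of haem breakdown. In this list DESeq2 called 1 gene as higher in juvenile and 2 as higher in adult libraries. Fth1 was at 563 to 1050 CPM in juvenile and 1350 to 2250 CPM in adult libraries (log2 fold -1.13, SE 0.20, edgeR adjusted p = 0.00911). Blvrb was at 13.6 to 38.3 and 45.4 to 403 CPM (log2 fold -2.86, SE 0.52, edgeR adjusted p = 0.0112), with a log2 fold of -2.06 without adult replicate 4. Of 5 genes listed for copper uptake and delivery, edgeR called Atox1, a copper chaperone, at 275 to 336 and 457 to 564 CPM (log2 fold -0.72, SE 0.14, edgeR adjusted p = 0.016). DESeq2 called 1 gene of this list in each direction. Adult replicate 4, the highest in erythroid markers (37250 CPM), was also the highest adult library in Gclm, Prdx2 and Blvrb, at 123, 682 and 403 CPM, but not in Fth1, Atox1, Txn1 or Txnip. Juvenile replicate 1, the highest of its age in erythroid markers, was the highest juvenile library in Blvrb, Fth1, Atox1, Txn1 and Txnip, but not in Prdx2, and was the lowest in Gclm. All 10 erythroid markers tested were called higher in adult libraries, and their part in these calls was not tested. The copper carried by Atox1 reaches the secretory pathway and thereby Sod3, whereas Sod1 has a chaperone of its own.

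Some genes of the ER were called higher in juvenile libraries. Of 18 genes of ER oxidative folding tested, edgeR called 3 as higher at 4 weeks and 0 as higher at 12 weeks. In the adult direction 1 had an unadjusted p under 0.05, and DESeq2 called 0. Over the 18 genes, 10 folds were positive and 8 negative, with a median log2 fold of 0.01. Qsox1, a sulfhydryl oxidase, was at 141 to 178 CPM in juvenile and 51.3 to 81.8 CPM in adult libraries (log2 fold 1.32, SE 0.19, edgeR adjusted p = 0.00272). Txndc5, a disulphide isomerase, was at 252 to 363 and 137 to 195 CPM (log2 fold 0.82, SE 0.18, edgeR adjusted p = 0.0247), and its exons overlap those of Bmp6 on the opposite strand. P4hb, a disulphide isomerase and subunit of the collagen prolyl hydroxylase, was at 780 to 894 and 450 to 642 CPM (log2 fold 0.59, SE 0.15, edgeR adjusted p = 0.0448). Of 20 genes of the selenocysteine machinery and selenoproteins, only Selenom, an ER selenoprotein, was called, at 372 to 461 and 183 to 238 CPM (log2 fold 1.05, SE 0.15, edgeR adjusted p = 0.00283). Of these 20 folds, 14 were negative, and DESeq2 called 2 genes in each direction. The osteoblast sum given above was higher at the same age, and its part in these calls was not tested.

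Of 14 oxidant-producing genes tested, edgeR called 4. In this list DESeq2 called 1 gene as higher in juvenile and 4 as higher in adult libraries. Cybb, the catalytic subunit of the phagocyte oxidase, was at 0.424 to 4.88 CPM in juvenile and 1.67 to 98.7 CPM in adult libraries (log2 fold -3.97, SE 0.89, edgeR adjusted p = 0.028). Its log2 fold was -3.09 without adult replicate 3 and -2.84 with the replicate block. Mpo, myeloperoxidase of neutrophil granules, was at 1.5 to 22.5 and 0.334 to 534 CPM (log2 fold -4.94, SE 1.16, edgeR adjusted p = 0.0346). Its log2 fold was -6.06 without juvenile replicate 2, -4.12 without adult replicate 1 and -3.33 with limma voom. Adult replicate 2 lay within the juvenile range for Cybb and below it for Mpo, which had 2 counts there. Neither was called by limma voom, and Mpo overlaps the antisense gene Gm11505. Rac2, a regulator of that oxidase, was at 108 to 241 and 249 to 467 CPM, 2.01-fold higher in adult libraries (edgeR adjusted p = 0.0462). Duox1, a dual oxidase, had 12, 8, 9, 33 and 42 counts in juvenile replicates 1 to 5 and 0, 1, 0 and 0 in adult replicates 1 to 4 (edgeR adjusted p = 0.0236), and no fold is given at such counts.

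Neutrophil markers were also higher in adult libraries. Of 10 neutrophil markers tested, of 12 listed, edgeR called 8 as higher in adult libraries, as did DESeq2, and limma voom called 2. Their sum was 22.3, 22.2, 16.8, 74.7 and 22.5 CPM in juvenile replicates 1 to 5. In adult replicates 1 to 4 it was 4116, 110, 3513 and 3423 CPM. Adult replicate 2 was the lowest adult library in these markers, in Cybb and in Mpo. Among juvenile libraries Mpo did not follow them, since replicate 4 had the highest sum and the lowest Mpo (8 counts), and replicate 2 had the highest Mpo (156 counts). S100a8 was the most abundant marker with 34.1% of the sum, and 3 to 8 of the 12 markers were at 0 in a juvenile library and 0 to 2 in an adult library. The part of neutrophil RNA in these calls was not tested.

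In the list of peroxisome biogenesis and oxidation, 0 of 23 genes were called by edgeR, 0 had an unadjusted p under 0.05, and DESeq2 and limma called 0. The most abundant were Crat, at 101 ± 19.6 CPM (SD, n = 5) and 69.2 ± 35.5 CPM (SD, n = 4), and Pex2, at 53.6 ± 29.5 CPM (SD, n = 5) and 57.3 ± 9.27 CPM (SD, n = 4).

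Of the 16 listed genes called, 7 kept the call whichever library was left out, namely Gclm, Txnip, Fth1, Blvrb, Atox1, Selenom and Qsox1. The Prdx2 call was lost without juvenile replicate 1, 3, 4 or 5 or adult replicate 4, that of Txn1 without juvenile 3, 4 or 5 or adult 1, 3 or 4, and that of Txndc5 without juvenile 2 or 3 or adult 2 or 4. P4hb lost it without any juvenile library or adult 1, 3 or 4, Rac2 without juvenile 2, 3, 4 or 5 or adult 1 or 3, and Cybb without any juvenile library or adult 3. Mgst2 lost it without juvenile 1, 2, 4 or 5 or adult 1, 3 or 4, Mpo without juvenile 1, 3, 4 or 5 or adult 1 or 4, and Duox1 without adult 1, 3 or 4. Duox1 had a value in 12 of 19 alternatives. In the others, among them those without juvenile 1, 3, 4 or 5, it did not pass the filter on low counts. Without juvenile replicates 4 and 5 together, Selenom and Qsox1 kept the call, Duox1 did not pass that filter and the other genes lost the call. With these fewer libraries the log2 folds were -1.89 for Gclm, -1.51 for Txnip, -2.73 for Blvrb, -0.96 for Fth1, -0.64 for Atox1, -0.71 for Prdx2 and -0.63 for Txn1. They were 0.95 for Txndc5, 0.56 for P4hb, -3.99 for Cybb, -4.51 for Mpo and -0.73 for Rac2.

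The edgeR adjusted p of P4hb was 0.113 with library totals, 0.0549 with DESeq2 size factors and 0.075 without the filter on low counts. That of Txndc5 was 0.0656 with library totals, so these calls of ER folding genes depended on scaling. Duox1 was not called with limma voom (adjusted p = 0.149; edgeR 0.0236), and the edgeR adjusted p without the filter was 0.0577 for Duox1 and 0.0656 for Mgst2. No log2 fold changed sign for these 16 genes in any alternative that gave a value.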

How the data were processed

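The authors mapped paired-end reads of 75 bp to the mouse genome mm10 with TopHat2 and Bowtie2, and featureCounts is among the tools in the submitters' processing notes. They deposited raw whole-number counts per Ensembl gene, 1 table per library, and the strand setting and annotation release are not given in the sources used here. Symbols, positions and exon lengths were taken from GENCODE M21 (GRCm38), which named 37607 of the 39179 identifiers. Each library was taken as 1 mouse, and libraries were grouped by the age in the labels.

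The main comparison of 4 with 12 weeks used edgeR 4.0.16 in R 4.3.3 (filterByExpr, TMM, quasi-likelihood F test, Benjamini-Hochberg adjustment over 13418 genes, called under 0.05). Log2 CPM used a prior count of 2. The study's methods name DESeq2, used here as an alternative (1.42.0), as was limma voom 3.58.1 with quality weights. Further alternatives were other scalings, filters and gene sets, a replicate block, the 7 libraries whose Xist counts exceed their Y-linked counts, and each library left out.

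Members and lists were chosen with earlier results of these data known. The text names all members, every listed gene called or, in a list with none, its 2 most abundant, and, for the 3 members with the largest difference in mean log2 CPM, the 3 genes of highest r. Chi-square per degree of freedom was at least 16.92 in the 36 pairs of libraries, so none was a copy. The planned comparison of protein sequences was not made here, and coding windows were compared instead. Of the other sample columns, 0 were used. Ranges, SEs and floors cover counting error or the spread of these libraries only. Figures were drawn with matplotlib 3.10.9.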

Additional observations from a re-analysis of the deposited data

Results flagged for a closer look

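In each age, the gap of the highest or lowest library to its nearest neighbour was divided by the range of that age. For normally distributed values chance would mark about 1 in 20 groups this way, a rate not measured in these data. Of 110 groups, 20 (18.2%) were marked, many of which share a library or a gene. A group at 0 in all but 1 library has a ratio of 1 whatever the level, so its mark carries no weight. No explanation was tested.

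Among the members, adult replicate 4 stood apart in Gpx4 at 363 CPM, with the next at 265 CPM. Adult replicate 1 stood apart in Sod2 at 164 CPM (next 82.9) and in Sod3 at 3.47 CPM, where the other adult libraries were at 0. In that library Sod3 held 1.15% of the dismutase CPM. Juvenile replicate 3 had the lowest Gpx4 share of glutathione peroxidase CPM at 6.46% (next 7.46), and juvenile replicate 4 the lowest Gpx8 share at 5.9% (next 7.06).

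Among the other named genes, adult replicate 3 alone of its age had Gpx2, at 1.24 CPM. Adult replicate 2 alone of its age had Duox1, at 0.167 CPM, which is 1 count and below the floor of 3 counts. Mgst2 was at 0.851 CPM in juvenile replicate 3 and at 13.3 CPM in adult replicate 1, the next being 0.212 and 5.82 CPM, and the juvenile value rests on 4 counts. Prdx2 reached 682 CPM in adult replicate 4 (next 441). P4hb was lowest in juvenile replicate 1 at 780 CPM (next 875), and Mpo highest in juvenile replicate 2 at 22.5 CPM (next 5.3).

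Summed marker levels stood apart for chondrocytes in juvenile replicate 3 (993 CPM) and adult replicate 2 (4854 CPM), for erythroid cells in juvenile replicate 1 (2556 CPM), for neutrophils in juvenile replicate 4 (74.7 CPM), for megakaryocytes and platelets in adult replicate 4 (4268 CPM), for T and NK cells in juvenile replicate 2 (8.79 CPM) and for mast cells and basophils in juvenile replicate 3 (7.02 CPM).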

How the results depend on the processing

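Over 152 recomputed log2 folds of the 8 tested members, only Gpx8 took both signs, from -0.07 to 0.25. Gpx1 ranged from -2.17 to -1.58, Gpx3 from 1.29 to 1.55, Gpx4 from -0.30 to -0.01, Gpx7 from 0.80 to 1.09, Cat from -1.10 to -0.45, Sod1 from -0.62 to -0.36 and Sod2 from -0.85 to -0.32.

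Counts of calls differed between alternatives. The 520 genes called across all genes became 1490 of 20852 genes tested with DESeq2 (719 higher in juvenile, 771 in adult), which included 517 of the 520. With only the 7 libraries whose Xist counts exceed their Y-linked counts there were 73 (42 and 31). With library totals, 480 were higher in adult libraries, and the median fold of all genes moved from -0.0066 to -0.18. Leaving out 1 library gave 262 to 651 genes, of which 145 to 306 were higher in juvenile and 117 to 345 in adult libraries, and juvenile replicates 2, 3, 4 and 5 each moved the total by over 1.5 times, to 332, 293, 275 and 262. The 16 listed genes called became 28 with DESeq2, 2 with the Xist libraries and 8 to 19 with 1 library left out. From calls of members nothing is read. Of the 3 members called, 1 (Gpx3) was called with the Xist libraries, and 2 to 3 with 1 library left out. The causes were not tested.

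With the replicate number as a replicate block and juvenile replicate 5 left out, 81 genes were called (46 higher in juvenile, 35 in adult), with 1 listed gene and 1 member, Gpx3. Same-numbered libraries had correlations of deviations from the age means of 0.027, -0.032, 0.019 and 0.03. For adult replicates 3 and 4 the same-numbered juvenile library had the highest correlation of the juvenile libraries, and for adult replicates 1 and 2 another had. These values are near 0 and cannot show whether same-numbered libraries shared a preparation. On principal transcript lengths, added after seeing the data, 6 of the 9 members changed place in the order of levels in juvenile and 6 in adult libraries.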

Other observations

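Marker lists of further cell types were also summed. Of the tested markers, 2 of 8 macrophage genes were called higher in adult libraries (summed 485 to 827 CPM in juvenile, 1105 to 1833 CPM in adult), 2 of 8 osteoclast genes (12950 to 21210 and 16600 to 25620 CPM), 2 of 7 chondrocyte genes (364 to 993 and 598 to 4854 CPM), 1 of 3 megakaryocyte and platelet genes (13.0 to 26.3 and 62.4 to 4268 CPM) and 1 of 1 T and NK genes (0.424 to 8.79 and 40.8 to 110 CPM). In the list of Cxcl12-abundant stroma and adipocytes, 1 of 6 was higher in juvenile and 2 higher in adult libraries, and Plin1 was at 0 throughout. By edgeR, 0 of 7 pericyte and smooth muscle genes, 0 of 4 fibroblast genes, 0 of 6 B lineage genes and 0 of 1 mast and basophil genes were called. At an unadjusted p under 0.05 these were 2, 2, 1 and 0, DESeq2 called 0, 1, 1 and 1 and limma voom 1, 1, 0 and 0.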
